A study of Mus musculus with 4 samples.

Results

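Plasma cells are the antibody-secreting end stage of the B cell lineage, and in these data they were the cells of the sorted bone marrow that carried *Jchain*, the gene of the joining chain of secreted IgA and IgM, as a large part of their RNA. They were taken from 2 single-cell RNA-seq libraries, 1 WT and 1 *Tet2* KO, each holding lineage-negative (Lin-) progenitors together with CD11b+ myeloid cells. Members were chosen by the measured counts of these cells: a cell was one when *Jchain* gave at least 0.3% of its unique molecular identifiers (UMIs, the count of captured RNA molecules) and *Mzb1*, an endoplasmic reticulum (ER) protein of antibody-secreting cells, gave at least 2 UMIs. The rule found 158 of 1924 cells in the WT library (8.21%, 95% exact binomial interval 7.02 to 9.53) and 176 of 3068 cells in the *Tet2* KO library (5.74%, 4.94 to 6.62), or 334 of 4992 cells in these libraries and of 8969 cells in the series. The remaining libraries, of sorted granulocyte-monocyte progenitors (GMPs), held 0 such cells of 1258 in WT and 0 of 2719 in *Tet2* KO, which allows a share of up to 0.238% and 0.110%. These are shares of the sorted cells and not of the bone marrow. Here and below, the share that a count of 0 allows is 3 divided by the number of cells. The exact interval reaches further, to 0.293% and 0.136% in the GMP libraries.

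The *Tet2* KO animals carried Mx1-Cre and *Tet2* fl/fl, and the WT animals were *Tet2* fl/fl littermates without Mx1-Cre. Animals of both genotypes were young adults and had received the same course of polyinosinic-polycytidylic acid (pI:pC) injections, an interferon inducer that switches on Mx1-Cre, so that both had met the inflammatory stimulus. Mx1-Cre acts in every cell type that answers interferon, and whether a given plasma cell carried the deletion was not read from these libraries. *Tet2* was listed at 15.9 CPM (UMIs of a gene per 1000000 UMIs) in WT and 15.4 CPM in *Tet2* KO plasma cells, but UMIs from the 3' end of a transcript need not fall in the deleted part and check nothing here. Each genotype was 1 library, and the labels do not say whether a library held the cells of 1 mouse or of several, so that genotype, animal and preparation cannot be told apart, no test between genotypes was possible, and every difference below is a description of these libraries. The libraries held 22681380 UMIs in WT and 34024599 in *Tet2* KO, with medians of 11091.5 and 10417 UMIs per cell. Of all cell barcodes 37 occurred in more than 1 library, 1 of them a member's, and members of the genotypes shared 0.

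When a B cell becomes a plasma cell, the regulators Irf4, Blimp-1 (*Prdm1*) and Xbp1 replace the Pax5 program, the ER expands, and most messenger RNA comes to encode immunoglobulin. IgA and IgM leave the cell as polymers: a cysteine in the tail of their secreted heavy chains bonds to the joining chain, which the polymeric immunoglobulin receptor needs to carry them across epithelia. IgG is secreted as a monomer and has no such tail, although cells that make IgG can also express *Jchain*. In the marrow, plasma cells live in niches in which the ligands of BCMA (*Tnfrsf17*) and contact with stroma keep them alive.

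The heavy chain genes that set the classes of these cells end differently, and the ends show which chains can take up the joining chain. The last 60 coding bases of the secreted forms of *Igha*, *Ighm* and *Ighg2b* (GRCm38, minus strand, chr12:113258771-113258830, chr12:113420870-113420929 and chr12:113306392-113306451, GENCODE M21) are printed 5′ to 3′, with the cysteine codon next to the last position in capitals.
Igha: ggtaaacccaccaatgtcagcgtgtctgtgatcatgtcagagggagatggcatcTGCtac
Ighm: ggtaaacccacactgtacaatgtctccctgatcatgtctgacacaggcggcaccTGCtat
Ighg2b: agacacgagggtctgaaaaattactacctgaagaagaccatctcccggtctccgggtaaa
*Igha* and *Ighm* were identical at 41 of the 60 positions and both held the cysteine codon, whereas *Ighg2b* matched *Igha* at 12 and *Ighm* at 25 positions and held none. Positions were compared in order from the coding ends without alignment, so that the *Ighg2b* matches do not measure how alike the genes are. *Jchain* itself lies at chr5:88519809-88527891 (minus strand), *Igkc*, the kappa constant gene, at chr6:70726435-70726966 (plus strand), *Igha* at chr12:113254830-113260236 and *Ighm* at chr12:113418558-113422730 (both minus strand).

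The members carried the program that their name asks for, in genes that the rule did not use. Levels are CPM over UMIs outside the 187 immunoglobulin genes, summed over cells, since immunoglobulin filled a large and uneven part of each cell, and the WT value stands first. *Xbp1*, the transcription factor of the secretory program, stood at 1544 and 1605 CPM against 76.3 and 78.1 CPM in all other cells of the same libraries. *Irf4* stood at 125 and 144 CPM against 1.19 and 3.01, and *Prdm1* at 64.6 and 69.4 CPM against 0.448 and 0.475. The surface proteins followed, with *Sdc1* (CD138, the syndecan used to sort plasma cells) at 279 and 240 CPM against 4.48 and 4.41 and *Tnfrsf17* at 321 and 214 CPM against 0.497 and 0.380. *Pou2af1*, a B lineage coactivator, and *Slamf7* were likewise high, at 238 and 281 CPM and at 288 and 243 CPM. In the B cells described below they stood at 95.3 and 86.4 CPM and at 46.0 and 31.6 CPM. *Sdc1* reached 32.9 and 23.0 CPM in cells with at least 2 *Siglech* UMIs that were neither members nor B cells. Over the list of plasma cell regulators and surface proteins, 14 of 16 genes were at least 2-fold above the other cells in both libraries, where 3.22% of the 12640 genes compared were (log2 of CPM + 10).

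Several genes that mark B cells before this stage were low or at 0, and others were kept. *Pax5* had UMIs in 2 members of each library, at 2.12 and 1.93 CPM, against 118 and 76.4 CPM in the 33 and 61 B cells outside the rule, picked by *Cd79a* and B cell surface markers. *Ms4a1* (CD20) stood at 103 and 46.2 CPM. *Rgs13* of germinal centres and *Igll1* and *Rag1* of B cell precursors were at 0 in the members of both libraries, which allows a UMI in up to 1.90% and 1.70% of members. The germinal centre list as a whole was not absent. Its 7 genes summed to 29.6 and 49.1 CPM in members, against 11.9 and 18.0 CPM in the other cells and 39.4 and 29.9 CPM in the B cells. *Ms4a1* had a UMI in 28.5 and 16.5% of members against 2.10 and 1.90% of other cells. The signalling chain gene *Cd79a* had not been lost, at 1902 and 1448 CPM against 1038 and 737 CPM in the B cells, nor had *Vpreb3* of the early B lineage list, at 537 and 469 CPM against 546 and 462 CPM. Of 16 B cell identity genes 4 were at least 2-fold above the other cells in both libraries, where 3.22% of all genes were. The summed level of the 16 genes was 2745 and 2167 CPM in members against 3391 and 2797 CPM in B cells. These B cells were a mixed group, which limits every B cell value here and below. Neutrophil genes summed to 40663 and 14205 CPM in them, against 4660 and 9106 CPM in members. Immunoglobulin took up to 26.4 and 53.6% of their UMIs.

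Members differed in how much of their RNA was antibody. In WT the immunoglobulin genes took from 27.0% of a member's UMIs, with a median of 65.9%, up to 81.7%, and in *Tet2* KO from 14.2%, with a median of 62.1%, up to 83.4%. The ranges overlapped over nearly their whole length, and the medians of the other cells were 0.0935% and 0.0799%. At least 50% of UMIs were immunoglobulin in 141 of 158 and 142 of 176 members, and under 30% in 3 and 12. *Igkc* alone gave 44.8% of all member UMIs in WT and 39.0% in *Tet2* KO, *Igha* 12.3% and 10.7%, and *Jchain* 5.94% and 5.59%. Members showed fewer genes, immunoglobulin genes included, with medians of 1298.5 and 1236.5 against 2515.5 and 2509 in the other cells. Their total UMIs had medians of 15018 and 12736.5. Outside immunoglobulin the medians were only 4881 and 4699 UMIs, against 10757.5 and 10310.5 in the other cells, so that the gene counts were not taken at equal depth. Over all UMIs, immunoglobulin included, the mitochondrial share had medians of 1.25% and 1.39% in members against 2.36% and 2.39% in the other cells. Antibody RNA fills most of the member total, so that these shares do not show a lower mitochondrial level in the remaining RNA.

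*Jchain* and *Mzb1* chose the members, so that their own values are given only as a description. *Jchain* took from 0.532%, with a median of 6.15%, up to 14.4% of a WT member's UMIs, and from 0.436%, with a median of 5.92%, up to 12.6% in *Tet2* KO. *Mzb1* counts ran from 2 through a median of 18 to 62 UMIs in WT and from 2 through 16.5 to 109 in *Tet2* KO. Few cells lay near the threshold: the lowest members had *Jchain* shares of 0.532, 0.561 and 0.609% in WT and 0.436, 0.464 and 0.511% in *Tet2* KO. The highest cells left out that had 2 or more *Mzb1* UMIs reached 0.195, 0.185 and 0.105% in WT and 0.289, 0.272 and 0.205% in *Tet2* KO, and 2 further WT cells with 0.320 and 3.09% *Jchain* had 0 *Mzb1* UMIs. At least 10% immunoglobulin was also found in 8 WT and 9 *Tet2* KO cells outside the rule, and in *Tet2* KO 6 of those 9 were led by *Ighg2b*.

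Antibody RNA outside the plasma cells sets the background for every immunoglobulin count. In the other cells with under 1% immunoglobulin, *Igkc* gave a UMI in 97.8 and 96.7% of cells and *Igha* in 92.4 and 86.5%, at median depths of 10811 and 10325.5 UMIs. In the GMP libraries, sorted apart, *Igha* was seen in 0 of 1257 cells in WT, which allows a share of up to 0.239%, and in 0.0736% of cells in *Tet2* KO. A UMI of these genes therefore marks no cell by itself, and the class of a cell was read only from the constant gene with most UMIs, with at least 10 UMIs and 60% of its kind. By that measure the members were nearly pure, with a median of 99.9% of heavy chain UMIs from 1 gene in both libraries and 99.1% of light chain UMIs.

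IgA was the leading class in both genotypes. *Igha* led in 111 of 158 WT members (70.3%, 62.5 to 77.3) and in 145 of 176 *Tet2* KO members (82.4%, 75.9 to 87.7). *Ighm* led in 33 (20.9%, 14.8 to 28.1) and 22 (12.5%, 8.002 to 18.3). An IgG gene led in 13 (8.23%, 4.45 to 13.7) and 6 (3.41%, 1.26 to 7.27), of which *Ighg2b* made up 8 and 4 and *Ighg2c* 4 and 1, with the reservation that reads of these near-identical subclass genes can be split between them. *Ighd* led in 1 WT member and 3 *Tet2* KO members had no leading class. The share of IgA was higher and those of IgM and IgG were lower in *Tet2* KO, and all the paired intervals overlapped; intervals of shares and CPM cover counting error only, not the spread between mice. With all cells of at least 10% immunoglobulin in place of the rule, the IgG share was 9.04% in WT and 6.49% in *Tet2* KO, and the IgA share 68.1% and 79.5%.

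**Figure D1:**
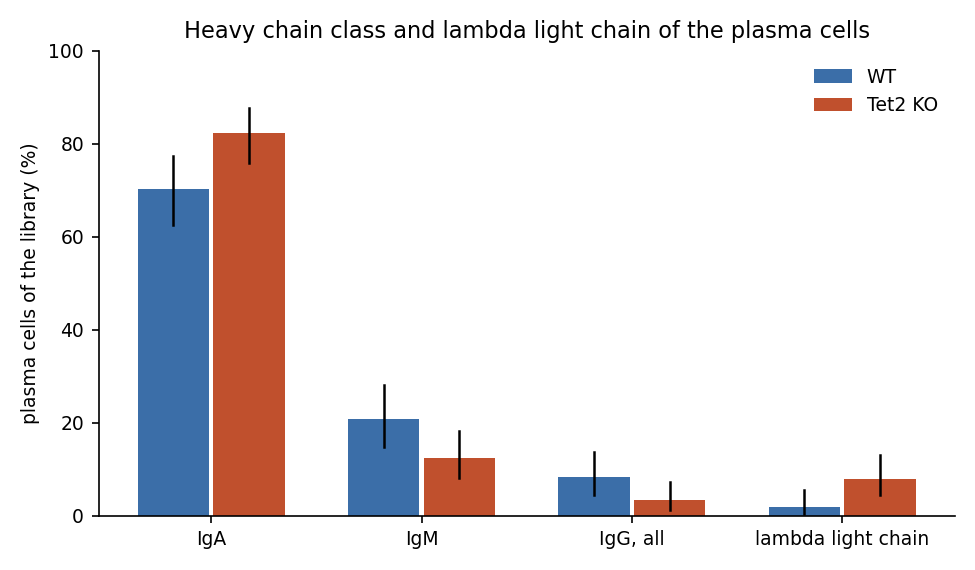
Share of plasma cells (percent of members, linear axis from 0) led by each heavy chain class, and share led by a lambda light chain, in WT (blue, 158 cells) and *Tet2* KO (orange, 176 cells); bars are the share and whiskers the 95% exact binomial interval. IgA was the tallest pair of bars, 70.3% and 82.4%, and lambda was 1.90% and 7.95%.

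*Jchain* shares are given by class as a description only, since a low share put a cell of any class outside the rule. In IgA members *Jchain* took from 0.640%, with a median of 7.04%, up to 14.4% of UMIs in WT, and from 0.511%, with a median of 6.36%, up to 12.6% in *Tet2* KO. In IgM members the medians were 3.51% (0.561 to 9.07%) and 4.31% (0.436 to 9.93%). The 8 and 4 *Ighg2b* members had medians of 1.75% (0.932 to 6.21%) and 1.34% (0.464 to 2.11%), and the 4 WT *Ighg2c* members ran from 0.532 to 2.19%. The order IgA, IgM, IgG2b held in both libraries, and the ranges of single cells overlapped. Cells with at least 10% immunoglobulin that the rule left out, most of them for low *Jchain*, were 2 *Igha*, 4 *Ighm* and 2 *Ighg2b* cells in WT and 2 *Igha*, 1 *Ighm* and 6 *Ighg2b* cells in *Tet2* KO. Total immunoglobulin ran in another order, with medians of 67.3 and 62.6% in IgA, 62.5 and 55.9% in IgM, and 63.1% in both libraries in *Ighg2b* members.

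**Figure D2:**
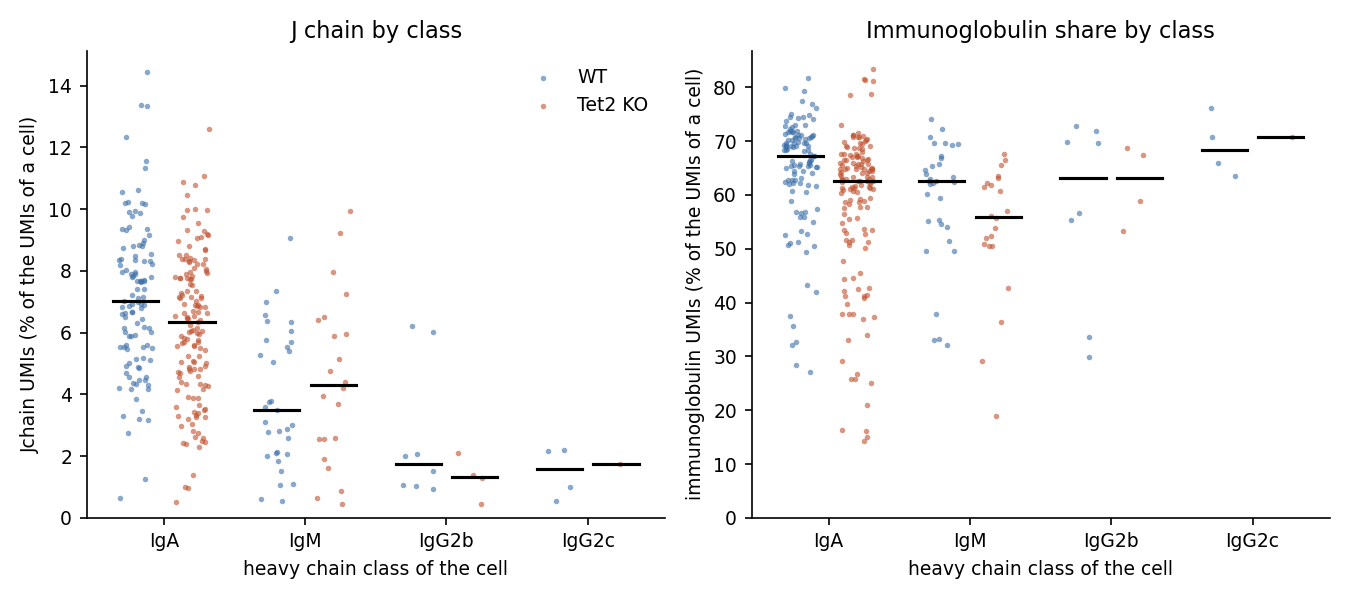
*Jchain* share and total immunoglobulin share of UMIs (percent, linear axes) in each single plasma cell by leading heavy chain gene, WT in blue and *Tet2* KO in orange, with black bars at the medians. *Jchain* medians stepped down from IgA (7.04 and 6.36%) to IgM (3.51 and 4.31%) to IgG2b (1.75 and 1.34%), while immunoglobulin medians all lay above 55%.

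Light chains were nearly all kappa. *Igkc* led in 155 of 158 WT and 162 of 176 *Tet2* KO members, and a lambda gene in 3 (1.90%, 0.393 to 5.45) and 14 (7.95%, 4.42 to 12.99), with overlapping intervals. Every lambda member made IgA: 3 of 111 IgA cells in WT and 14 of 145 in *Tet2* KO, against 0 of 33 and 0 of 22 IgM cells, which allow a share of up to 9.09% and 13.6%. *Iglc1* thus gave 0.890% of member UMIs in WT and 3.23% in *Tet2* KO.

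Variable (V) genes were thinly read, at 0.274 and 0.258% of member UMIs, since 3' libraries capture the other end of the transcript. A heavy V gene could be called in 17 WT members, spread over 13 genes, and in 11 *Tet2* KO members, over 8 genes. A light V gene could be called in 59 and 63, and both in 5 and 6. In WT, 3 IgM cells shared *Ighv1-55* with *Igkv3-4*, and in *Tet2* KO 3 IgA cells shared *Ighv1-82* with *Iglv1*. *Iglv1* was the leading light V gene in 19 WT and 47 *Tet2* KO members, all of the WT cells and 43 of the *Tet2* KO cells being led by *Igkc*. *Iglv1* counts were similar in kappa members (medians 4 and 6.5 UMIs) and in *Iglc1* members (7 and 5 UMIs), so that an *Iglv1* call did not mark a lambda cell and the shared *Tet2* KO pair is uncertain.

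The 20 genes highest over other cells, by the lower of the ratios in the libraries, included *Cd79a*, *Xbp1*, *Sdc1*, *Tnfrsf17*, *Pou2af1*, *Eaf2* and *Slamf7*. The list also held the ER genes *Derl3* (528 and 463 CPM against 2.64 and 2.60), which helps draw misfolded proteins out of the ER, and *Txndc5* (1656 and 1518 CPM against 63.1 and 62.2), a protein disulfide isomerase. *Slpi*, a secreted protease inhibitor, stood at 10384 and 12321 CPM against 427 and 505. *Prg2*, known as the major basic protein of eosinophils, stood at 998 and 1582 CPM against 3.63 and 51.1, in 85.4% of WT members. *Ccr10*, a chemokine receptor of IgA plasma cells that home to mucosa, stood at 160 and 134 CPM against 0.348 and 0.158. *Ly6a* (Sca-1), *Trp53inp1*, *Vpreb3*, *Oosp1*, *Fam46c*, *Fam214a* and the unnamed genes *Gm30211* and *Gm5547* completed them.

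The secretory pathway was high at some of its steps and close to the other cells at others. Chaperones were listed with genes of the unfolded protein response, the program by which the ER adjusts its folding capacity. Of these 24 genes 14 were at least 2-fold above other cells in both libraries, where 3.22% of all genes were. *Hsp90b1* (GRP94) stood at 1794 and 1882 CPM against 393 and 427, *Hspa5* (BiP) at 852 and 823 CPM against 345 and 337, and *Edem1*, a lectin that sends proteins to degradation, at 434 and 441 CPM against 33.7 and 44.6. *Calr* was not higher, at 746 and 671 CPM against 802 and 742. For entry into the ER, 8 of 20 genes of translocation and signal peptide cleavage passed, with *Ssr4* of the translocon-associated complex at 2801 and 2607 CPM against 641 and 608 and *Sec11c* of the signal peptidase at 1859 and 2004 CPM against 305 and 324.

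Where 3.22% of all genes passed this limit, ER-associated degradation did so in 10 of 13 genes. N-glycosylation passed in only 1 of 14, too few to set it apart from that share. *Herpud1* stood at 897 and 649 CPM against 60.2 and 56.5, *Sel1l* at 213 and 152 CPM against 19.6 and 23.0, and *Syvn1*, the ubiquitin ligase that works with it, at 76.2 and 74.2 CPM against 10.1 and 12.2. Transport from ER to Golgi passed in 5 of 22, among them the transcription factor *Creb3l2*, which drives genes of the vesicle coat, at 83.6 and 60.7 CPM against 6.77 and 6.24. Of amino acid transport and stress response genes 5 of 14 passed, with *Slc3a2*, the heavy subunit of amino acid transporters, at 873 and 712 CPM against 101 and 94.2. At least 2-fold below other cells in both libraries were 15 of 16 S phase genes and 15 of 16 G2/M genes, where 4% of all genes were.

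**Figure D3:**
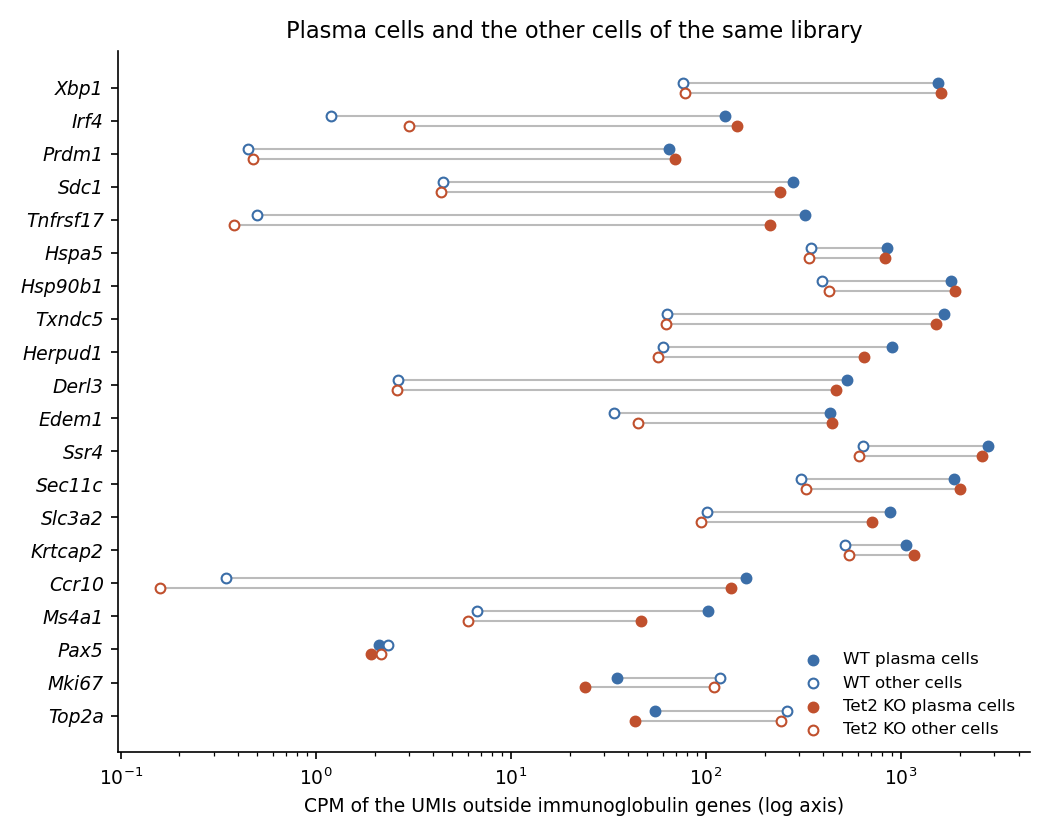
Level of 20 genes (CPM of UMIs outside immunoglobulin, logarithmic axis) in plasma cells (filled points) and in the other cells of the same library (open points), WT in blue and *Tet2* KO in orange. The regulators, ER genes and receptors lay to the right of the open points in both libraries, *Xbp1* at 1544 and 1605 against 76.3 and 78.1 CPM.

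Promoters of several of these genes hold the ER stress response element, to which the factors ATF6 and NF-Y bind. Its letters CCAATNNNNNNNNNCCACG were searched on both strands in RefSeq promoters (GRCm38.p6, 250 bases before to 50 after the start), where N is any base. The element was in 37 of 27025 promoters (0.137%), in 7 of the 20 promoters found for the unfolded protein response list (*Hspa5*, *Hsp90b1*, *Calr*, *Canx*, *Pdia6*, *Dnajc3* and *Creld2*) and in 2 of 12 for ER-associated degradation (*Derl3* and *Syvn1*). It was in 0 of 15, 0 of 13 and 0 of 19 promoters of translocation, N-glycosylation and ER to Golgi transport, which says only that these letters are not in these windows. The promoters of 4 genes high in the members are shown on the strand of the gene, the element or its reverse complement in capitals: *Hspa5* (chr2:34771840-34772139, plus), *Hsp90b1* (chr10:86705395-86705694, minus), *Creld2* (chr15:88819396-88819695, plus) and *Derl3* (chr10:75893148-75893447, plus).
Hspa5: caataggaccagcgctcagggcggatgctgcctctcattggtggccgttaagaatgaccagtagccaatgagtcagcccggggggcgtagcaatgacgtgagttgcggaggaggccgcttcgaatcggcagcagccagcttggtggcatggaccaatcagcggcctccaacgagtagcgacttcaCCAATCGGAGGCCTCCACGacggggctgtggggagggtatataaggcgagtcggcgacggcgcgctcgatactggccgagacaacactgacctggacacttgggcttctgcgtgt
Hsp90b1: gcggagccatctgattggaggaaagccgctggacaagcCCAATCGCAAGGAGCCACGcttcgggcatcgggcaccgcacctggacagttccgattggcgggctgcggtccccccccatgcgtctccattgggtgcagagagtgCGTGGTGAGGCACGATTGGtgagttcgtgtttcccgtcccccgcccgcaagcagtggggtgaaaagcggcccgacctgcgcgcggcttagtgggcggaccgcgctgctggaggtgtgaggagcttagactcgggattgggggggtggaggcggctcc
Creld2: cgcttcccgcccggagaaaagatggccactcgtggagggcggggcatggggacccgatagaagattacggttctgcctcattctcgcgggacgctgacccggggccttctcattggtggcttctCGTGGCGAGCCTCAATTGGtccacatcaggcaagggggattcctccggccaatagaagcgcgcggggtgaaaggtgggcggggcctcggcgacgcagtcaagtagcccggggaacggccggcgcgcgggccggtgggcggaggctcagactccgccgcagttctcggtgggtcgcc
Derl3: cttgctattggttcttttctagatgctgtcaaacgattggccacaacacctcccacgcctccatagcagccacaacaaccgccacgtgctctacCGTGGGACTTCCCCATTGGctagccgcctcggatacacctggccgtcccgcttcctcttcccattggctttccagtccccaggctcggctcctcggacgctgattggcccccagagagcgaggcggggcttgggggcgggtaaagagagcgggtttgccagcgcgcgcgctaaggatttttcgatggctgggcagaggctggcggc
The element began 65 bases before the start in *Hspa5*, and *Hsp90b1* held 2 copies, 1 on each strand. Genes with it were not all alike in level: *Creld2* stood at 485 and 403 CPM against 45.8 and 51.4 in other cells, and *Canx* at 132 and 144 CPM against 189 and 218.

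Receptors of plasma cell survival and homing were partly high. Of 21 survival and homing genes 5 were at least 2-fold above other cells in both libraries, where 3.22% of all genes were, among them *Tnfrsf17*, *Tnfrsf13b* (TACI, 236 and 186 CPM against 44.2 and 41.3), *Ccr10* and *Cd28*, a costimulatory receptor, at 55.0 and 42.4 CPM against 2.24 and 2.22. *Cxcr4*, the receptor of the stromal chemokine CXCL12, was not higher, at 31.7 and 31.8 CPM against 52.2 and 57.7. Shares of cells with a UMI depend on depth: thinned to 5000 UMIs per cell, with no member left out, *Sdc1* was seen in 39.2% of WT and 41.5% of *Tet2* KO members in place of 74.7% and 70.5%, and *Ccr10* in 23.4% and 23.3% in place of 46.8% and 46.6%.

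IgA and IgM members differed in named genes in both libraries. With 10 genes taken each way from the WT cells alone, by a rule set after the data had been seen, the *Tet2* KO cells served as the cells not used for the choice. All 10 genes higher in WT IgM members were higher in *Tet2* KO IgM members, and 9 of them at least 2-fold, where 4.02% of 2291 genes were. Of the 10 genes higher in WT IgA members, 9 were higher in *Tet2* KO IgA members and 5 at least 2-fold, where 3.62% were. These ratios compare 145 with 22 cells of 1 library and have no replicate.

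*Vpreb3*, a relative of the surrogate light chain, stood at 681 CPM in WT IgA against 15.9 in IgM members and at 554 against 25.2 in *Tet2* KO, log2 ratios of 4.74 and 4.00. *Ccr10* stood at 229 against 5.30 CPM in WT and 159 against 42.0 in *Tet2* KO (3.96 and 1.70). *B3gnt8*, a glycosyltransferase, had 0 UMIs in the IgM members of both libraries, with exact Poisson upper limits of 19.5 and 31.0 CPM, and stood at 59.4 and 33.5 CPM in IgA members. On the IgM side, *Lag3*, an inhibitory receptor that binds MHC class II, stood at 111 CPM against 18.3 in IgA members in WT and 269 against 22.7 in *Tet2* KO (-2.10 and -3.09). *Chst1*, a sulfotransferase, had ratios of -3.62 and -3.03, and *Ccnd2* (cyclin D2) of -1.98 and -1.58. *Fcmr*, the Fc receptor of IgM, named by its role, stood at 84.8 against 22.9 CPM in WT and 235 against 8.38 in *Tet2* KO. *Sdc4* was the exception, 2.39 in WT and -0.03 in *Tet2* KO.

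**Figure D4:**
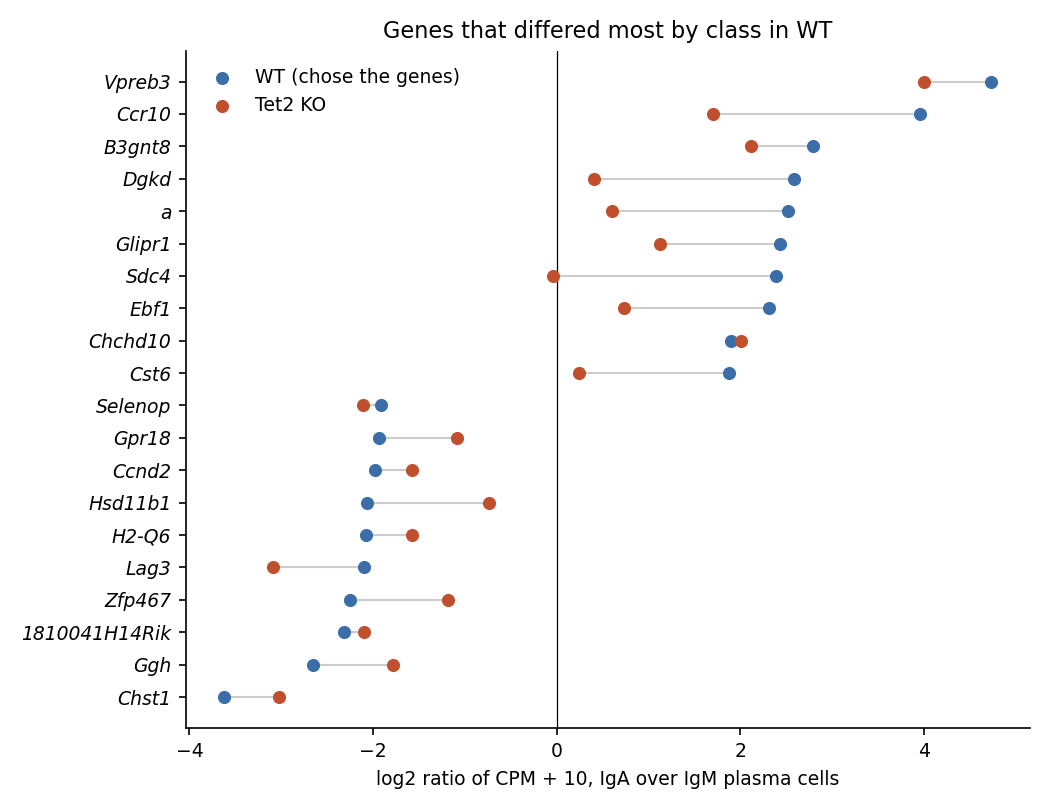
Log2 ratio of IgA over IgM members (CPM + 10) for the 20 genes chosen in WT (blue) and the same genes in *Tet2* KO (orange), joined by a line per gene; right of 0 is higher in IgA cells. The *Tet2* KO points lay on the WT side for 19 of the 20 genes, with *Sdc4* at -0.03.

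Between genotypes the plasma cells were compared gene by gene by the log2 of CPM + 1 in *Tet2* KO minus that in WT, in the 6199 genes with at least 20 UMIs over the members. At least 2-fold higher in *Tet2* KO were 236 genes (3.81%) and at least 2-fold lower 178 (2.87%), around a median of 0.00. Without the mixed droplets described below 146 genes were higher and 171 lower. Brackets give the exact 95% interval of a ratio, which covers the counting of UMIs and no difference between mice. With CPM of all UMIs in place of UMIs outside immunoglobulin, the median of all genes was 0.21, and 83.1% of the genes past 2-fold were higher in *Tet2* KO in place of 57.0%. The secretory machinery did not differ by 2-fold between genotypes: 0 of 24 unfolded protein response genes, 0 of 20 translocation genes, 0 of 14 N-glycosylation genes, 0 of 13 degradation genes and 0 of 22 ER to Golgi genes reached 2-fold, with medians of -0.08, 0.02, -0.09, -0.18 and -0.02. The furthest among these were *Sec24d* (-0.85), *Sec31a* (-0.76) and *Ddit3* (0.53), all thinly counted. Survival and homing receptors had a median of -0.07 over 15 genes, 0 of them at 2-fold, and *Tnfrsf17* was the furthest at -0.58 [-0.84, -0.33].

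Among the plasma cell regulators, 0 of 16 were at least 2-fold higher and 2 at least 2-fold lower, where 3.81% and 2.87% of all genes were, with *Xbp1* at 0.06 and *Prdm1* at 0.10. *Ly6k*, a surface protein of the Ly6 family, was lower in *Tet2* KO, at 447 CPM in WT and 122 in *Tet2* KO (-1.86 [-2.17, -1.58]), and had UMIs in 33.5% and 10.2% of members. The other cells of the libraries showed the same direction at far lower levels (12.04 and 2.25 CPM, -2.004), as did the GMP libraries (-2.16), so that this difference was not particular to plasma cells. *Epcam*, an adhesion molecule, was lower at 168 and 57.8 CPM (-1.53 [-1.995, -1.10]), with a UMI in 79 of 158 and 37 of 176 members, or in 23.4% and 9.66% after thinning. In the other cells *Epcam* was near 0, at 1.09 and 1.33 CPM. The B cells had 9.86 and 19.9 CPM (0.95, the opposite direction), from UMIs in 3 and 5 cells.

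**Figure D5:**
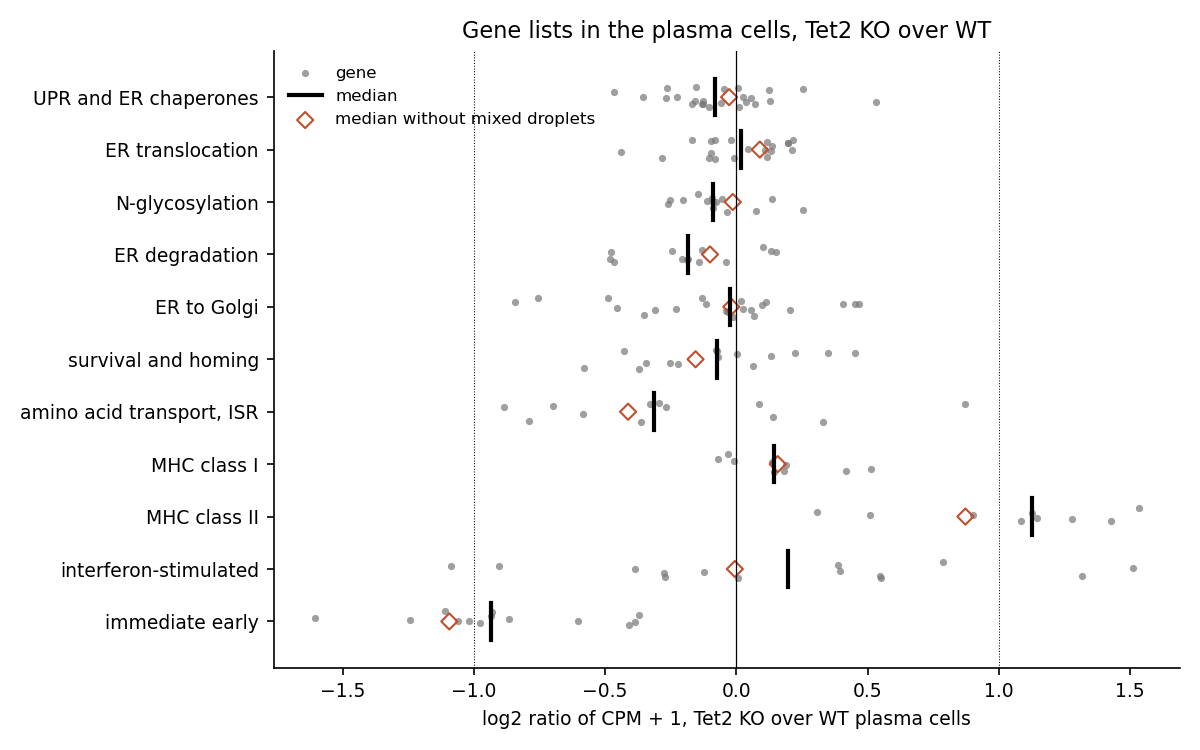
Log2 ratio between *Tet2* KO and WT plasma cells (CPM + 1) for each gene of 11 lists, with the list median as a black bar, the median without mixed droplets as a diamond, and dotted lines at 2-fold. MHC class II lay to the right (median 1.13, diamond 0.87), immediate early genes to the left (-0.94, diamond -1.09), and the 5 secretory lists between -0.18 and 0.02.

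Immediate early genes, which cells switch on within minutes of a stimulus, were lower in *Tet2* KO plasma cells. All 13 counted genes had ratios below 0 and 5 were at least 2-fold lower, where 2.87% of all genes were, with a median of -0.94. *Fos* stood at 2423 CPM in WT and 1023 in *Tet2* KO (-1.24 [-1.35, -1.14]), *Jun* at 1697 and 889 CPM (-0.93), *Egr1* at 207 and 67.4 CPM (-1.61 [-2.04, -1.22]) and *Dusp1*, a phosphatase that switches off MAP kinases, at 186 and 85.7 CPM (-1.11). In other cells of the same libraries the list's median was -0.19, in B cells -0.32 and in GMPs -0.68, so that the direction was shared, and whether the sizes differed was not tested.

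The metallothioneins, which bind zinc and are induced by metals and glucocorticoids, were furthest on the WT side among the 10 genes taken there. *Mt2* stood at 683 CPM in WT and 165 in *Tet2* KO (-2.04 [-2.30, -1.81]), with UMIs in 44.9% and 19.3% of members, and *Mt1* at 1207 and 322 CPM (-1.90 [-2.09, -1.73]), in 70.3% and 38.6%. The other cells differed less, with -0.61 for *Mt2* at 3.23 and 1.77 CPM and -0.27 for *Mt1*, and the GMP libraries gave 0.14 and 0.17. Single cells held up to 22.8% of the *Mt2* UMIs in *Tet2* KO and 8.53% in WT. The linker histone gene *Hist1h1c* (-1.41), *Zbtb38*, a zinc finger protein that binds methylated DNA (-1.22), and *Alad* of haem synthesis (-1.22) followed. Amino acid and stress response genes had a median of -0.31 with 0 of 12 at 2-fold, led by *Asns*, asparagine synthetase, at 72.0 and 38.5 CPM (-0.88) and *Phgdh* of serine synthesis at 221 and 136 CPM (-0.70).

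MHC class II genes, which present peptides and are switched off as B cells become plasma cells, were higher in *Tet2* KO. All 9 had ratios above 0 and 6 were at least 2-fold higher, where 3.81% of all genes were, with a median of 1.13. *H2-Aa* stood at 272 and 662 CPM (1.28 [1.07, 1.495]) with UMIs in 23.4% and 33.5% of members, *H2-DMb1*, which loads peptides, at 29.6 and 87.7 CPM (1.53), and *Cd74*, the invariant chain, at 5673 and 7021 CPM (0.31 [0.26, 0.36]). *Ciita*, the master regulator of these genes, stood at 3.18 and 25.04 CPM (2.64), from UMIs in 1.27% and 5.68% of members. Without the mixed droplets described next it stood at 3.63 and 17.2 CPM (1.98 [0.40, 4.69]), and its UMIs fell under the minimum of 20. The other cells had a median of 0.59 over the same list, with *H2-Aa* at 1.45, while the B cells had -0.19 and GMPs -0.38. Without these droplets the median of the list was 0.87 with 3 of 9 genes at 2-fold and *H2-Aa* at 1.10. MHC class I genes had a median of 0.14, with 0 of 9 at 2-fold.

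Some members carried RNA of other cell types. Markers of neutrophils, monocytes, erythroid cells and early progenitors together made at least 1% of UMIs outside immunoglobulin in 8 WT and 20 *Tet2* KO members, with up to 35.9% and 39.9%. These members are called mixed droplets here, and no doublet caller was run. Markers of basophils, T and NK cells, dendritic cells and B cells were not counted, so that droplets mixed with those cells could stay in. *S100a8* stood at 1552 and 4275 CPM in members, against 15209 and 11289.9 CPM in the other cells, and the median of the 10 neutrophil genes was 0.98 with all members and -0.47 without those droplets. The 8 monocyte genes had a median of 1.05, or 0.67 without them. Both lists helped to choose the droplets, so that a change in their medians was in part set by that choice. Markers of T and NK cells had a median of 1.77 over 5 genes, or 1.09 over 4 genes without the mixed droplets, and at least 2 UMIs of T cell genes occurred in 4 and 16 members. Basophil genes went the other way (4 of 4 at least 2-fold lower, median -5.54, and -5.56 without the mixed droplets). In WT, 2 members held 94.4% of the 1778 basophil UMIs of that library. The erythroid gene *Car1* was at 0 in both libraries.

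Of the genes furthest on the *Tet2* KO side, some moved with those droplets and some did not. *Lyz2* and *Lgals3* were themselves among the markers that chose the droplets. Carry-over from cell types outside those markers was not tested. *Lyz2*, lysozyme of myeloid cells, was 1.34 with all members and 0.56 without the mixed droplets, *S100a6* was 1.34 and 0.63, *Ifi27l2a*, an interferon-induced gene, 1.51 and 0.85, and on the WT side the granule protease gene *Ctsg* was -1.73 and -0.71. *Id2*, an inhibitor of E proteins, stood at 44.4 and 178 CPM and was 1.98 with all members and 1.97 without. *Cd52*, a small surface glycoprotein of leukocytes, stood at 1307 and 3271 CPM with UMIs in 84.8% and 95.5% of members. Its ratio was 1.32 with all members and 1.34 without the droplets, against 0.29 in the other cells, 0.69 in B cells and 0.26 in GMPs. *S100a4* was 1.67 and 2.52, *Lgals3* (galectin-3) 1.40 and 2.10, *Crip1* 1.21 and 1.09, and the histone gene *Hist1h2ac* 1.35 with all members. Some of these directions were shared: in the other cells, B cells and GMPs *S100a4* was 0.92, 0.98 and 0.90. *Ifi27l2a* was 1.30, 0.89 and 0.49 there, whereas *Id2* was 0.68, -0.17 and -0.22.

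Among the remaining lists, interferon-stimulated genes had a median of 0.20 over 14 genes, 2 higher and 1 lower by 2-fold, and of -0.01 without mixed droplets. Ribosomal protein genes had a median of 0.11, with 67 of 77 above 0 and 0 at 2-fold, and oxidative phosphorylation genes of 0.10 with 1 of 93 at 2-fold. S phase and G2/M genes had medians of -0.00 and -0.31, and B cell identity genes of 0.01 over 8 genes, with *Ms4a1* at -1.13 and *Ciita* at 2.64. Without mixed droplets the B cell identity median was -0.34 over 6 genes, with 0 of them at least 2-fold higher and *Ms4a1* at -1.31. Read over IgA members alone, immediate early genes had a median of -0.95, MHC class II genes of 1.14, *Mt2* stood at -3.05 and *Cd52* at 1.73, with the same directions as over all members.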

How the data were processed

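Single cells of 4 mouse bone marrow libraries were measured by 3' RNA-seq (10x Genomics), 1 library per genotype and sort. The kit was v2 in the labels and v3.1 in the series' design text. The authors deposited raw UMI counts for 18695 genes and 8969 cells, and no per-sample columns were left out. The submitters' processing notes name Cell Ranger 3.1.0, Seurat and the mm10 build. The study's methods removed cells below 200 genes or 5000 UMIs and those with 5% mitochondrial reads or more, whereas 413 deposited cells had 5% or more by these counts.

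Members and gene lists were chosen with earlier results of these data known. Counts were summed over the members of a library and scaled to CPM of UMIs outside 187 immunoglobulin genes. Without replicate libraries no test was made: exact Poisson, binomial and conditional binomial intervals (95%) covered counting error only, and ratios used CPM + 1 in genes with at least 20 UMIs over the members. Members were set against other cells at CPM + 10. Named genes were list members, the 20 highest over other cells with UMIs in 20% of members, and the 10 highest and 10 lowest *Tet2* KO over WT ratios among genes with at least 100 UMIs, a UMI in 20% of the members of the higher library and no single cell holding over 25% of that library's UMIs of the gene. *Fcmr*, *H2-Aa* and others were read by role in IgA and IgM members. 3' UMI counts were not divided by gene length, so levels were compared between cells, not between genes. Doublets were not called; mixed droplets were left out as an alternative. Other alternatives were the rule's thresholds, scaling (CPM of all UMIs, TMM of edgeR 4.0.16), filters, pseudocount, class and thinning. Scripts ran in Python 3.11.15 (numpy 2.4.6, scipy 1.17.1, pandas 2.3.3, biopython 1.88, matplotlib 3.10.9) and R 4.3.3 and were tested on simulated data. Some genes are not reported here.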

Additional observations from a re-analysis of the deposited data

Results flagged for a closer look

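*Ighm* UMIs were found in libraries that the comparisons did not use. In the sorted GMPs, which held 0 plasma cells, 55.6% of WT and 62.7% of *Tet2* KO cells had at least 1 *Ighm* UMI, at 103 and 112 CPM of all UMIs. *Igkc* was seen in 0.796% and 0.368% of the same cells and *Igha* in 0% and 0.0736%, and the ratio of these genes thus differed from that in the other cells of the Lin- and CD11b+ libraries, where *Igkc* gave 449 and 399 CPM and *Ighm* 209 and 173 CPM. What these *Ighm* UMIs came from was not tested. The class of plasma cells was read from leading constant genes with at least 10 UMIs.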

How the results depend on the processing

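Each of 74 results was recomputed under alternatives, 704 in all, of which 646 stayed within the counting interval (for a list, the median width over its genes) or, for counts of genes or cells, within 1.5 times of the reported value, 55 moved further and 3 turned a value that lay outside its interval around 0. The sign differed in 27 of the 704, once for *Ctsg* and 26 times for medians of 11 lists. The alternatives restricted to IgA members, to members with fewer than 10 G2/M UMIs, or to cells with at least 10% immunoglobulin were chosen after seeing the data. The neutrophil median was -0.76 with *Jchain* at 0.1% or more, -0.47 without mixed droplets and 0.39 as a mean over cells. *Ctsg* changed sign to 0.61 with fewer than 10 G2/M UMIs, where the ribosomal median was 0.20 and the monocyte median 1.98. Without mixed droplets 146 genes were at least 2-fold higher and 171 lower in *Tet2* KO. With CPM of all UMIs 320 genes were higher and 65 lower, and the medians were 0.13 for the unfolded protein response and 0.32 for ribosomal proteins, beside 0.21 for all genes. Without the low-count filter 1155 of 13050 genes were higher and 1636 lower. The B cell identity median was -0.53 in IgA members. A light V gene was called in 106 and 96 members with no minimum share and in 12 and 8 at 90%, where 0 and 0 cells shared V genes and class. Thinned to 5000 UMIs, *Sdc1* was seen in 39.2 and 41.5% of members, *Tnfrsf17* in 41.8 and 37.5%, *Ccr10* in 23.4 and 23.3% and *Epcam* in 23.4 and 9.66%. The cause of these changes was not tested, beyond the fewer cells, genes or UMIs that an alternative itself leaves.

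No paired analysis was possible because each genotype had 1 library of this sort and no result came from a test.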

Other observations

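A small set of plasma cells carried transcripts of division. At least 10 UMIs of the 16 G2/M genes were found in 13 of 158 WT members (8.23%, 4.45 to 13.7) and 17 of 176 *Tet2* KO members (9.66%, 5.73 to 15.01), and the intervals overlapped. *Top2a*, the topoisomerase of dividing cells, stood at 232 CPM in these WT members against 8.04 in the rest, and at 192 against 4.85 in *Tet2* KO. They held less antibody RNA, with medians of 33.5% and 33.1% of UMIs against 67.2% and 62.9%, and more genes, with medians of 3422 and 2659 against 1271 and 1193. The plasma cell genes were lower in them, with *Xbp1* at 443 CPM against 1837 in WT and 575 against 1872 in *Tet2* KO, and *Sdc1* at 55.4 against 339 and 126 against 269. Markers of other cell types made at least 1% of UMIs outside immunoglobulin in 6 of these 13 WT and 9 of these 17 *Tet2* KO members, against 2 and 11 of the rest, and the part of mixed droplets in these values was not tested.

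Cells rich in immunoglobulin but outside the rule numbered 8 in WT and 9 in *Tet2* KO, with immunoglobulin from 16.4 to 68.1% and from 12.7 to 67.3% of UMIs. Their *Jchain* share had medians of 0.216% and 0.148%. In WT 4 were led by *Ighm*, 2 by *Igha* and 2 by *Ighg2b*, and in *Tet2* KO 6 were led by *Ighg2b*, 2 by *Igha* and 1 by *Ighm*. *Mzb1* was under 2 UMIs in 4 of the 8 and 1 of the 9.

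*Iglv1* reached 412 UMIs in a WT and 317 in a *Tet2* KO member led by *Igkc*, whereas members led by *Iglc1* had at most 9 and 34. Outside the members 0.805% and 1.33% of cells with under 1% immunoglobulin had an *Iglv1* UMI.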
